A study of Mus musculus with 2 samples.

Results

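Basal cells of the adult mouse mammary gland were compared between 2 single-cell libraries, one made from cells sorted as basal and one made from the whole epithelium. A cell was called basal by the counts of 6 genes, selected on Krt5, Krt14 and Acta2 transcripts that together reached 3 unique molecular identifiers (UMIs, counts of single captured transcripts) and exceeded the sum of the luminal keratins Krt8, Krt18 and Krt19. The rule chose 5158 of 8073 cells in all, 3865 of 4771 in the sorted library (81.0%, 79.9 to 82.1, exact Clopper-Pearson 95% interval) and 1293 of 3302 in the total epithelial library (39.2%, 37.5 to 40.8). Both libraries came from untreated female FVB/NJ mice of 10 weeks, with the glands of 4 mice pooled per library, and the cells of both gates were negative for the lineage markers TER119, CD31 and CD45. The sorted library held the CD29hi CD24+ gate and the total epithelial library held all CD24+ cells. Each gate was therefore represented by 1 library, so the sort, the animals and the library preparation cannot be told apart, no difference below has a replicate check, and every interval covers counting error only.

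The mammary duct has an inner luminal layer and an outer basal layer that rests on the basement membrane. Most basal cells are myoepithelial cells, which express Krt5 and Krt14, carry smooth-muscle contractile proteins and squeeze milk along the ducts when oxytocin binds its receptor. The basal gate used here, high for CD29 (integrin beta 1, encoded by Itgb1), is also the gate in which cells able to regenerate a gland on transplantation were described.

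The basal cells of the 2 libraries differed in depth. Basal cells of the sorted library held 137 to 1873 UMIs with a median of 523 and 314 genes per cell, and those of the total epithelial library held 802 to 8220 UMIs with a median of 1788 and 899 genes, a ratio of medians of 3.42. Summed over cells, the 2 pools were of similar size, with 2141120 and 2603661 UMIs. Because depth differed, all levels are given as CPM, the UMIs of a gene scaled to a pooled basal total of 1000000, and shares of cells are given after each cell was thinned to 487 UMIs, the median of all cells in the sorted library. The UMI ranges overlapped between 802 and 1873, where 557 sorted and 703 total epithelial basal cells lay. The 2 libraries shared 28 cell barcodes, of which 6 were basal in both.

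The depth also showed at the edge of the rule. In the sorted library 304 basal cells sat at exactly 3 UMIs of Krt5, Krt14 and Acta2, with a median of 350.5 total UMIs, and 243 cells lay just outside with 2 such UMIs and a median of 300 total UMIs. In the total epithelial library 4 cells sat at the threshold and 0 lay at 2 UMIs above their luminal keratin sum. A further 14 sorted and 3 total epithelial cells reached 3 UMIs but tied with their luminal keratin sum. The median sum of the 3 basal genes was 9 UMIs in sorted and 54 in total epithelial basal cells. A luminal keratin UMI was present in 1420 of the sorted and 1102 of the total epithelial basal cells, and 227 and 45 cells respectively entered through Acta2 alone.

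The genes of the rule are given as a description, since they chose the cells. Krt14 stood at 9202 CPM in sorted and 10000 CPM in total epithelial basal cells, and Krt5 at 1167 and 736 CPM. Acta2, smooth-muscle actin, stood at 8777 and 19383 CPM. Among the luminal keratins, Krt8 stood at 818 and 912 CPM, Krt18 at 382 and 959.8 CPM, and Krt19 at 60.2 and 235 CPM. The basal markers outside the rule, Krt17, Cnn1, Tagln, Myh11, Mylk, Oxtr and Trp63, were all detected in each pool. Detection alone says little in pools of this size, so their level is set against cells chosen by the reverse rule. These 7 markers summed to 11416 CPM in sorted and 17004 CPM in total epithelial basal cells. In cells of the reverse rule they summed to 3424 and 221 CPM, lower than in basal cells of the same library.

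Of 3202 genes with a mean of at least 50 CPM over both pools, 845 (26.4%) were 2-fold or more higher in sorted basal cells and 613 (19.1%) were 2-fold or more lower, and these shares are the background against which each gene group below is read. The log2 ratio of sorted over total CPM had a median of 0.33, with the middle 50% of genes between -0.69 and 1.03 and 5th and 95th percentiles of -1.74 and 1.62. Scaling by the trimmed mean of M-values (TMM) in place of total counts moved every log2 ratio down by 0.39 and left 350 genes higher and 890 lower. The share of past-threshold genes that were higher thus went from 58.0% under total counts to 30.5% under TMM, so the balance of the directions depended on the scaling. Over these genes the log2 CPM of both pools had a Pearson correlation of 0.71 across genes, which are not independent replicates. The plot of CPM in one pool against the other shows a broad band around the diagonal with a few genes well outside it.

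**Figure D1:**
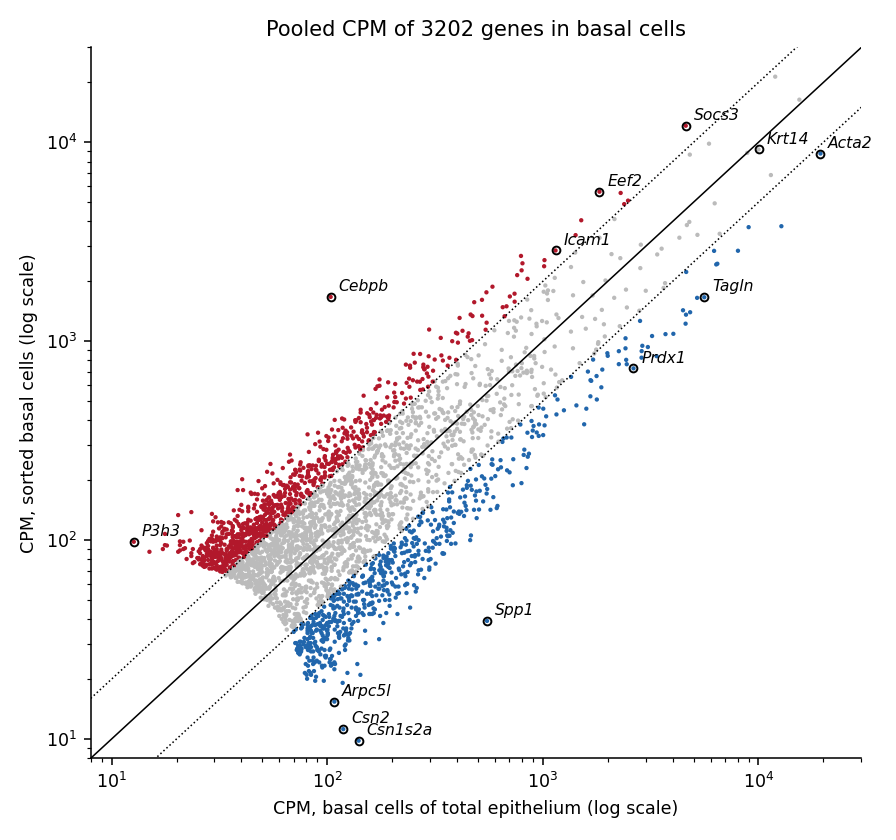
Pooled CPM of 3202 genes in basal cells of the total epithelial library (x axis) and the sorted library (y axis), both on log scales, 1 point per gene; the solid line marks equal CPM and the dotted lines 2-fold, with genes 2-fold or more higher in sorted cells in red and lower in blue. Cebpb lies far above the band at 1670 against 104 CPM, while Spp1, Csn1s2a and Csn2 lie far below it.

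Cebpb, which encodes the transcription factor C/EBP beta, had the highest ratio of all genes compared. It was counted 3575 times in sorted basal cells and 270 times in total epithelial basal cells, which is 1670 against 104 CPM, a ratio of 16.1 (95% interval 14.2 to 18.3). At 487 UMIs per cell it was seen in 53.1% of sorted basal cells and 4.95% of total epithelial basal cells. The ratio kept nearly the same size in cells of the shared UMI range, with a log2 ratio of 4.01 there and 4.01 over all cells. The luminal-keratin cells, chosen by the reverse rule, showed the same direction, with 2242 CPM in the sorted and 57.5 CPM in the total epithelial library. The gene is a single exon on chromosome 2 (GRCm38, 167688915 to 167690418, plus strand) whose sequence overlaps an exon of Tmem189 on the opposite strand.

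The other 11 of the 12 highest ratios were far smaller, from 4.65 to 7.74, and came from genes of low level. P3h3, a collagen prolyl hydroxylase, stood at 98.1 and 12.7 CPM, a ratio of 7.74 (95% interval 5.34 to 11.5). Ckap4, a membrane protein of the endoplasmic reticulum, stood at 107 and 17.7 CPM, and Lrig3, a leucine-rich repeat membrane protein, at 87.3 and 15.0 CPM. Atp13a2, a lysosomal cation pump, Dctn1, a dynactin subunit, Ppp1r37, a regulator of protein phosphatase 1, and Fhdc1, a formin-homology protein, had log2 ratios of 2.42, 2.38, 2.25 and 2.22. Hspa1b, an inducible heat-shock chaperone, stood at 90.1 and 17.3 CPM, and it has a near-identical copy, Hspa1a, with which it can share reads. The predicted genes Gm26917 and Gm42418 had log2 ratios of 2.71 and 2.56.

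Milk and secretory genes of luminal cells had the 3 lowest ratios of all genes compared. Csn1s2a, an alpha-casein, was counted 21 times in sorted and 364 times in total epithelial basal cells, 9.81 against 139.8 CPM, and was 14.3-fold (9.19 to 23.3) lower. Spp1, the secreted phosphoprotein osteopontin, stood at 39.2 against 551 CPM and was 14-fold (11.3 to 17.7) lower. Csn2, beta-casein, stood at 11.2 against 119 CPM and was 10.6-fold (6.98 to 16.8) lower. The casein UMIs lay in few cells. Without thinning, Csn1s2a was seen in 8 of 3865 sorted and 26 of 1293 total epithelial basal cells. Csn2 was seen in 5 and 46 of these cells, and Spp1 in 29 and 298. The intervals treat UMIs as independent, so they do not cover such clustering in cells. The log2 ratios of Csn1s2a, Spp1 and Csn2 were -3.83, -3.81 and -3.40 over all basal cells. They kept most of that size when the members were thinned to 487 UMIs, at -3.26, -3.27 and -2.85. They were much smaller among the cells of the shared UMI range, which leaves out the deeper total epithelial and the shallower sorted cells, at -0.25, -0.55 and -0.06. The casein values there rest on few UMIs, since the whole sorted pool held 21 of Csn1s2a and 24 of Csn2. Plet1, a surface protein of luminal progenitors, was at -2.53 over all cells, -2.36 with thinned members and -0.37 in the shared range.

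The remaining 8 of the 12 lowest ratios did not belong to milk or luminal progenitor genes, and they behaved differently in that range. Arpc5l, a subunit of the actin-nucleating Arp2/3 assembly, stood at 15.4 against 108 CPM, was 7.0-fold (4.87 to 10.4) lower, and had a log2 ratio of -3.10 in cells of the shared UMI range. Its exons overlap Wdr38 on the same strand and Rpl35 on the opposite strand. Gpx8, a peroxidase of the endoplasmic reticulum, stood at 19.1 against 118 CPM, and at 9.12 CPM in luminal-keratin cells of the total epithelial library. Its log2 ratios were -2.62 over all cells and -2.66 in the shared range. Apoa1bp, an epimerase that repairs NAD(P)HX, was at -2.76 and -2.40. Ssu72, an RNA polymerase phosphatase, was at -2.53 and -1.93, and Ndufa8, a subunit of respiratory complex I, at -2.45 and -2.16. Cetn3, a centrin, was at -2.40 and -2.07, Psma6, a proteasome subunit, at -2.32 and -1.57, and Ostc, of the oligosaccharyltransferase, at -2.31 and -1.83. All 8 thus remained more than 2-fold lower in the shared range.

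Markers of other cell types were mostly low in both pools but not equal, and Lcn2 was an exception. The 8 markers of luminal progenitors (LP) summed to 677 CPM in sorted and 1801 CPM in total epithelial basal cells. Most of that sum was Lcn2, an iron-sequestering secreted protein, at 632 and 1676 CPM, whereas the LP-defining gene Kit was counted 0 and 3 times. The 8 markers of mature luminal (ML) cells, which sense ovarian hormones, summed to 17.3 and 111 CPM. Areg, an epidermal growth factor family ligand, was not counted in sorted and was counted 75 times in total epithelial basal cells, which at a floor of 3 counts over the sorted pool was at least 20.6-fold lower. Prlr, the prolactin receptor, was counted 1 and 56 times, a total-over-sorted ratio of 46.1 (7.93 to 1851). Fibroblast markers summed to 276 and 389 CPM, mostly Dcn at 193 and 349.9 CPM. The sums for endothelial (19.1 and 36.1 CPM), pericyte (22.0 and 20.4), immune (16.8 and 44.9), glial (46.2 and 21.9) and skin keratinocyte (7.47 and 13.4) markers were small, as was that of the hemoglobin genes (0.934 and 0). Ptprc, which encodes CD45 of the lineage gate, was not counted in either pool, and Pecam1, which encodes CD31, was counted 17 and 11 times.

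The luminal markers differed in how many basal cells held them. At 487 UMIs per cell, Spp1 was seen in 0.814% (0.483 to 1.28) of sorted basal cells and 7.97% (6.55 to 9.58) of total epithelial basal cells, and in 31.8% of the luminal-keratin cells of the total epithelial library. Lcn2 was seen in 20.5% and 48.2% of basal cells and in 35.9% of those luminal-keratin cells, so its share in total epithelial basal cells was above that in luminal-keratin cells. Other luminal genes went in both directions. Cldn4 stood at 29.0 and 65.3 CPM in sorted and total epithelial basal cells, Cldn3 at 27.6 and 51.1 CPM, and Csn3 at 9.81 and 58.0 CPM. Others were not lower by CPM in sorted basal cells. Gata3, a luminal transcription factor, stood at 200.4 and 93.3 CPM, Cdh1, E-cadherin, at 40.6 and 19.2 CPM, and Elf3, an epithelial transcription factor, at 101 and 77.2 CPM. The longest transcripts of Gata3, Cdh1 and Elf3 had 3215, 4430 and 2095 nt. Those of Cldn4, Cldn3 and Csn3 had 1816, 1259 and 1750 nt. After subtracting the median log2 ratio of genes of like length and GC content, Gata3 lay at 0.32 and Elf3 at 0.06. The secreted proteins Mfge8 and Trf stood at 649 and 574 CPM and at 1307 and 1181 CPM, with log2 ratios of 0.18 and 0.15 that were -0.21 and -0.24 under TMM. When every cell with a combined 2 or more UMIs of non-basal markers was left out, 3373 sorted and 346 total epithelial basal cells remained, so the filter removed far more of the deeper library. Among genes that the filter did not use, the log2 ratio without those cells was -3.07 for Spp1, -2.36 for Csn2, -1.21 for Plet1 and -0.31 for Csn1s2a. Lcn2 and Dcn were among the markers filtered on, so their values without those cells are not read. The part of cells with mixed content in these results was not tested.

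Genes of basal identity showed no common shift. Of 11 compared, 4 were 2-fold or more higher and 0 lower, and under TMM 1 was higher and 0 lower. The median log2 ratio was 0.01, which became -0.38 under TMM and 0.43 in the shared UMI range. Krt17, a basal keratin, stood at 4931 and 6263 CPM, and Cxcl14, a secreted chemokine of the basal layer, at 3977 and 4777 CPM. Vim, vimentin, stood at 775 and 799 CPM, a ratio of 0.970 (95% interval 0.909 to 1.04), and Wif1, a secreted inhibitor of Wnt ligands, at 702 and 696 CPM, a ratio of 1.01 (95% interval 0.941 to 1.08). The 4 past the threshold, named after their values were seen, were Cdh3 (P-cadherin), Id4 (an inhibitor of basic helix-loop-helix factors), Lgr6 (an R-spondin receptor) and Dkk3, with log2 ratios of 1.42, 1.36, 1.34 and 1.12. Trp63, the transcription factor p63 that specifies basal epithelium, stood at 107 and 76.8 CPM.

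Of 18 contractile genes compared, 6 were 2-fold or more higher and 4 lower, shares near those of all genes, and under TMM the counts were 2 and 5. The median log2 ratio was 0.76, 0.37 under TMM and 0.78 in the shared UMI range. Tagln (transgelin) stood at 1662 against 5605 CPM and was 3.37-fold (3.25 to 3.5) lower, and Tpm2 (beta-tropomyosin) stood at 1398 against 4819 CPM and was 3.45-fold (3.31 to 3.59) lower. Cnn1 (calponin) stood at 1852 against 3629 CPM, just inside 2-fold. Csrp1 stood at 1816 against 2429 CPM. In the other direction, and named after their values were seen, Actn1 (an actinin that crosslinks actin) stood at 1879 against 584 CPM, Smtn (smoothelin) at 780.0 against 255 CPM, Myh11 (smooth-muscle myosin heavy chain) at 1335 against 664 CPM and Mylk (the kinase that activates smooth-muscle myosin) at 1141 against 543 CPM. Oxtr, the oxytocin receptor, stood at 388 against 223 CPM. Of the genes named here, the longest transcript of Tagln had 1595 nt and that of Tpm2 2175 nt, while that of Actn1 had 3734 nt and that of Myh11 6549 nt. Relative to genes of like length and GC content, that is, after subtracting the median log2 ratio of such genes, Tpm2 lay at -2.12, Tagln at -0.49, Actn1 at 0.31 and Myh11 at -0.17 on the log2 scale.

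Matrix and basement membrane genes lay mostly above the background median. Of 15 compared, 6 were 2-fold or more higher and 0 lower, with a median log2 ratio of 0.96, 0.57 under TMM and 1.42 in the shared UMI range. Sparc, a secreted matrix-binding protein, stood at 2019 and 1951 CPM, a ratio of 1.03 (95% interval 0.993 to 1.08), and Serpinh1, a collagen chaperone, at 1701 and 1380 CPM. Lamb3, a chain of the basement membrane laminin that anchors hemidesmosomes, stood at 754 and 242 CPM, a ratio of 3.12 (95% interval 2.84 to 3.42). Thbs1, thrombospondin, stood at 630.0 and 353 CPM. Matn2 (matrilin) had the highest ratio of the list, 4.12 (95% interval 3.37 to 5.08), and was named after its value was seen. These genes have long transcripts, and the median of the list relative to genes of like length and GC was 0.06, with 0 genes 2-fold or more above and 0 below.

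The 2 genes of the gate differed in direction by CPM but not relative to genes of like length and GC. Itgb1, which encodes CD29, stood at 1338 CPM in sorted and 472 CPM in total epithelial basal cells, a ratio of 2.84 (95% interval 2.65 to 3.03), and at 487 UMIs was seen in 40.8% and 20.1% of cells. The log2 ratio of Itgb1 was 1.5 over all cells, 1.11 under TMM and 1.48 in the shared UMI range. Cd24a, which encodes CD24, stood at 352 and 577 CPM, 1.64-fold (1.5 to 1.79) lower, and was seen in 12.8% and 23.0% of cells. Relative to genes of like length and GC, Itgb1 (3815 nt) lay at 0.95 and Cd24a (1816 nt) at 0.65 on the log2 scale, both above and both within 2-fold. Luminal-keratin cells also held more Itgb1 in the sorted library, 727 against 159.5 CPM. Those cells came from the same CD29hi gate and also held more of the 7 basal markers outside the rule, 3424 against 221 CPM. Of the 9 surface genes compared, 2 were 2-fold or more higher and 2 lower, with a median log2 ratio of -0.27, -0.66 under TMM and 0.05 in cells with no luminal keratin UMI. The 2 that were lower were the tetraspanins Cd9, at 948 against 2892 CPM, and Cd81, at 661 against 1352 CPM. Epcam, an epithelial adhesion protein, stood at 743 and 992 CPM.

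**Figure D2:**
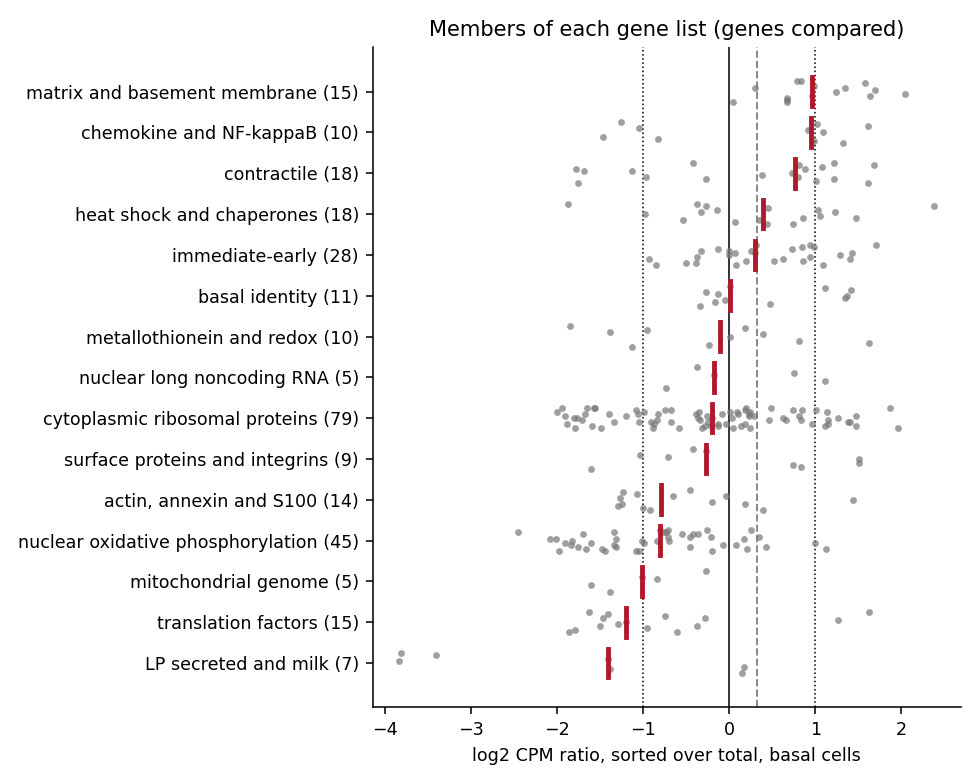
Log2 ratio of sorted over total CPM in basal cells for members of each gene list, 1 grey point per gene compared, with the number of genes in brackets and the list median in red; dotted lines mark 2-fold and the dashed line the median of all genes compared, 0.33. Matrix genes lie mostly to the right of that median, LP secreted and milk genes reach furthest to the left, and contractile genes and ribosomal protein genes spread to both sides.

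Immediate-early genes, which are switched on quickly by many stimuli, were abundant in both pools. Of 28 compared, 5 were 2-fold or more higher in sorted basal cells and 0 lower, a share of higher genes below that of all genes, and under TMM 3 were higher and 2 lower. The median log2 ratio of 0.30 was -0.09 under TMM. Junb stood at 16376 and 15470 CPM and Fos at 8846 and 8871 CPM, with log2 ratios of 0.08 and -0.0041. Socs3, a feedback inhibitor of cytokine receptor signalling, stood at 12112 and 4598 CPM, a ratio of 2.63 (95% interval 2.58 to 2.69), and was seen in 94.1% and 82.4% of cells at 487 UMIs. Jun stood at 4110 and 2148 CPM. Klf4, a zinc-finger factor named after its value was seen, stood at 1570 and 480.5 CPM. Thus the AP-1 genes Fos and Junb differed little while Socs3 and Klf4 were higher. Socs3 was also higher in the luminal-keratin cells of the sorted library, at 5974 against 852 CPM, though those cells also held more basal transcripts.

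Heat-shock genes and chaperones had 5 of 18 genes 2-fold or more higher and 1 lower, with a median log2 ratio of 0.40 that was 0.01 under TMM. The share of higher genes was near the 26.4% of all genes, and the median was near the 0.33 of all genes. Relative to genes of like length and GC, 1 gene lay 2-fold or more above and 1 below. Hspa8, the constitutive cytosolic chaperone, stood at 9837 and 5895 CPM, and Hspa5, the chaperone BiP of the endoplasmic reticulum, at 4889 and 2383 CPM. Hsp90ab1 stood at 3310 and 1832 CPM and the co-chaperone Dnaja1 at 1652 and 2142 CPM. The lower gene, named after its value was seen, was the small heat-shock protein Cryab, at 58.4 and 214 CPM.

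Genes of chemokine and NF-kappaB signalling were found in both directions. Of 10 compared, 4 were 2-fold or more higher and 3 lower, with a median log2 ratio of 0.95 and 0.56 under TMM. Relative to genes of like length and GC, 0 lay 2-fold or more above and 2 below, with a median of 0.07. Icam1, a leukocyte adhesion protein, stood at 2857 and 1145 CPM, a ratio of 2.5 (95% interval 2.39 to 2.61), and was seen in 65.8% and 40.4% of cells at 487 UMIs. The 3 lower genes were Nfkbia, the inhibitor of NF-kappaB, at 464 against 956 CPM, and the chemokines Cxcl1, at 119.6 against 331 CPM, and Ccl2, at 57.0 against 136 CPM. Under TMM 1 gene was 2-fold or more higher and 4 lower.

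By CPM, translation factors and genes of respiration were more often lower than higher in sorted basal cells, but relative to genes of like length and GC the balance held for the translation factors and not for respiration. The summed ribosomal protein genes made up 44232 CPM of sorted and 88830 CPM of total epithelial basal UMIs, and per cell at 487 UMIs the median share was 4.31% and 8.62%. Of 79 ribosomal protein genes compared, 12 were 2-fold or more higher and 20 lower, and the median log2 ratio of -0.20 was 0.09 in the shared UMI range, so the sum and the typical member did not move alike. Relative to genes of like length and GC, 34 of the 79 lay 2-fold or more above and 7 below. The shares over all genes compared were 5.72% above and 12.7% below. Rplp0 stood at 1651 against 5192 CPM, Rpl3 at 2848 against 8031 CPM and Rps2 at 2451 against 6444 CPM. Many ribosomal protein genes have processed copies that can share reads, so single values are uncertain. Of 15 translation factors, 2 were higher and 8 lower, with a median log2 ratio of -1.20, and on the relative scale 1 was above and 6 below, with a median of -0.20. Eef2, the elongation factor that moves the ribosome along, went the other way, at 5642 against 1830 CPM, a ratio of 3.08 (95% interval 2.98 to 3.19), while Eef1a1, which delivers transfer RNA, stood at 3424 against 5209 CPM.

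Of 45 nuclear genes of oxidative phosphorylation, 1 was 2-fold or more higher and 20 were lower, with a median log2 ratio of -0.81, against 5 above and 7 below with a median of -0.08 on the relative scale. The mitochondrial genome had 3 of 5 compared genes lower and 0 higher, with a median of -1.02, against 0 below and 1 above with a median of 0.35 on the relative scale. Its most abundant gene, mt-Nd1, stood at 719.7 against 1886 CPM. The mitochondrial transcripts were 0.145% of sorted and 0.348% of total epithelial basal UMIs, low in both. Iron-storage and redox genes included Fth1, at 2844 against 6224 CPM, Ftl1, at 2431 against 6368 CPM, and the peroxiredoxin Prdx1, at 730.0 against 2632 CPM, 3.61-fold (3.41 to 3.81) lower. The metallothionein Mt1 stood at 2359 against 1350 CPM, and the list had 1 of 10 genes higher and 3 lower. Of 14 actin, annexin and S100 genes, 1 was higher and 6 lower, 1 and 8 under TMM, and 3 above and 2 below with a median of 0.22 on the relative scale. The actin-severing cofilin Cfl1 stood at 844 against 1999 CPM. Among nuclear long noncoding RNAs, Malat1 stood at 6842 against 11415 CPM, Neat1 at 848 against 504 CPM and Xist at 229 against 106 CPM. The cell cycle list had 2 genes above the filter, Pcna at 70.5 against 180.1 CPM and H2afz at 220.0 against 406 CPM.

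The ratio of sorted over total followed transcript length. Genes were split into 5 groups of equal size by their longest annotated transcript, and the median log2 ratio was -1.19 for transcripts of 375 to 1825 nt, -0.04 for 1826 to 2627 nt, 0.78 for 2628 to 3416 nt, 0.93 for 3418 to 4564 nt and 0.75 above that. In the shortest group 370 of 641 genes were 2-fold or more lower and 19 higher, and in the fourth group 45 of 640 were lower and 300 higher. The Spearman correlation across the 3202 genes was 0.53 with length and 0.12 with GC content, given as a description, since genes share libraries and are not replicates. Genes that were higher had a median transcript of 3730 nt and those that were lower 1596 nt. Cebpb, at 1504 nt, was a short gene with a high ratio and lay 5.06 above genes of like length and GC on the log2 scale. When each gene was set against the median of genes of like length and GC, 183 genes (5.72%) lay 2-fold or more above and 407 (12.7%) below. Of these, 98 were among the 845 higher and 233 among the 613 lower genes, and 130 of the genes past the 2-fold threshold had the opposite sign on the relative scale. The median of the ribosomal protein genes was 0.70 on that scale against -0.20 before. The part of length in the gene group results was not tested beyond these values.

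**Figure D3:**
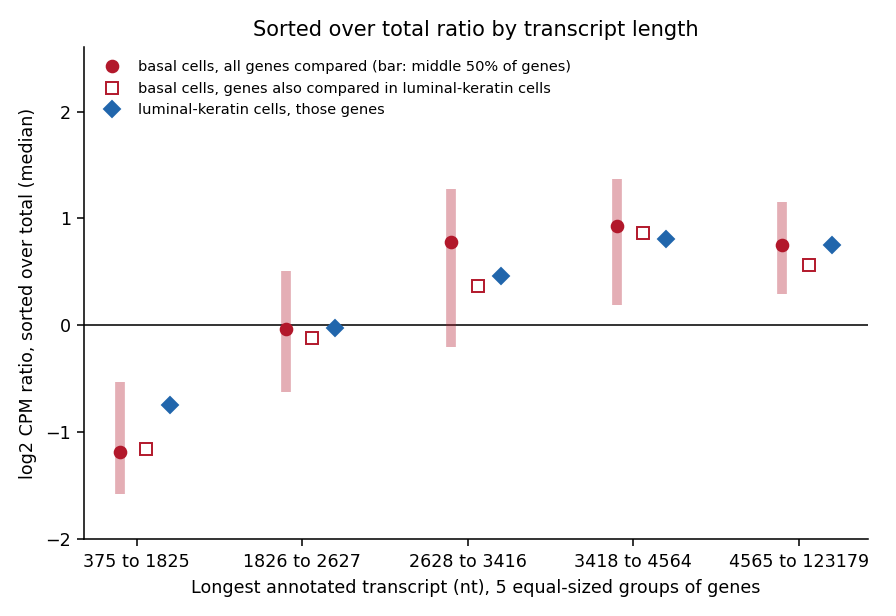
Median log2 ratio of sorted over total CPM (y axis) for 5 groups of genes of rising transcript length (x axis, nt), in basal cells over all genes compared (filled circles, bars for the middle 50% of genes), in basal cells over the genes also compared in luminal-keratin cells (open squares), and in luminal-keratin cells (diamonds). In both kinds of cells the shortest group lies below 0 and the 3 longest groups above it.

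The luminal-keratin cells of the same 2 libraries, 112 and 1928 cells, give the same quantity outside the basal cells. Over the genes with a mean of at least 200 CPM in them, the median log2 ratios of the 5 length groups were -0.74, -0.02, 0.46, 0.81 and 0.75, and the basal cells had -1.15, -0.11, 0.37, 0.86 and 0.57 for the same genes. These values come from the same 2 libraries, so they are set side by side and not as independent support. The comparison is limited by basal transcripts in the luminal-keratin cells of the sorted library, where the 7 basal markers outside the rule summed to 3424 CPM against 221 CPM in the total epithelial library. Krt17 was seen there in 27.5% and 2.33% of luminal-keratin cells at 487 UMIs, against 65.6% and 68.9% of basal cells.

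At matched depth 2211 sorted basal cells remained, 1654 having fewer than 487 UMIs, and all 1293 total epithelial basal cells remained. Sorted basal cells then held a median of 312 genes (middle 50% from 299 to 325) and total epithelial basal cells 341 (331 to 352). The shares of cells with a UMI kept the directions of the CPM for the genes below. Eef2 was seen in 88.2% and 56.0% of cells, and Lamb3 in 26.2% and 10.3%. Tagln was seen in 46.2% and 85.0%, Prdx1 in 23.7% and 71.7%, and mt-Nd4 in 8.19% and 24.2%. Without thinning the order of some genes turned, since deeper cells show more genes. Eef2 was then seen in 85.5% of sorted and 91.3% of total epithelial basal cells, and Socs3 in 94.3% and 97.1%. For Cebpb the unthinned shares were 52.1% and 17.6%. As a reference for stray RNA, Tagln was seen in 1.56% and Lamb3 in 0.985% of the luminal-keratin cells of the total epithelial library at the same depth. In the 69 luminal-keratin cells of the sorted library at that depth, Tagln was seen in 15.94% (8.24 to 26.74) and Lamb3 in 13.04% (6.14 to 23.32). The reference was thus not equally low in both libraries.

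**Figure D4:**
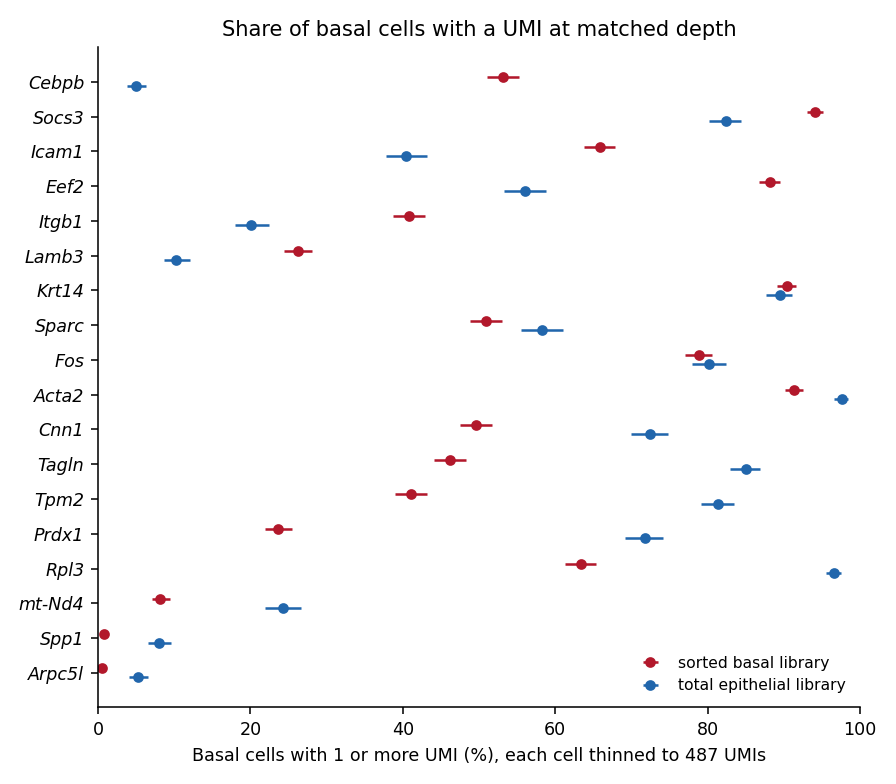
Share of basal cells with 1 or more UMI of each gene (x axis, percent) after every cell was thinned to 487 UMIs, for 2211 cells of the sorted library (red) and 1293 of the total epithelial library (blue), with exact 95% intervals that cover counting error only. Cebpb has the widest gap in the sorted direction, Krt14 and Fos nearly coincide, and Tagln, Tpm2, Prdx1 and Rpl3 are seen in more total epithelial cells. Krt14 and Acta2 are genes of the rule that chose the cells, so their shares are description only.

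The gene-list shares of single cells spread widely within each library. At 487 UMIs per cell this spread, and the share of cells with no count, include counting error, whose part was not tested. At 487 UMIs the immediate-early genes made up a median of 6.37% of a sorted basal cell's UMIs, from 2.05% at the 5th to 13.1% at the 95th percentile of cells, and 4.93% (1.64% to 10.3%) of a total epithelial basal cell's. Heat-shock genes made up 2.67% and 1.85%, contractile genes 1.64% and 2.26%, and matrix genes 0.616% and 0.411% at the median, with ranges that overlapped in each case. The ribosomal protein share was the most separated, with 5th to 95th percentiles of 2.05% to 7.39% in sorted and 4.93% to 12.7% in total epithelial basal cells. Mitochondrial transcripts were not counted in 57.8% of sorted and 28.3% of total epithelial basal cells at that depth.

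**Figure D5:**
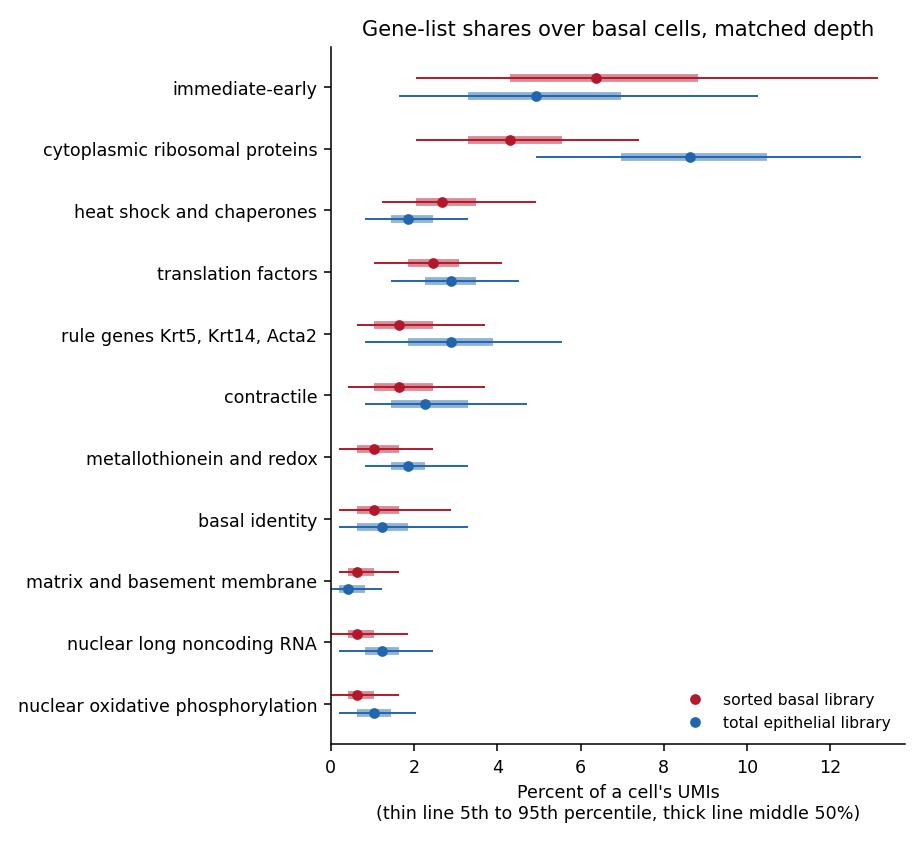
Percent of a basal cell's UMIs taken by each gene list (x axis) after thinning to 487 UMIs, in the sorted (red) and total epithelial (blue) libraries, with the median as a point, the middle 50% of cells as a thick line and the 5th to 95th percentile as a thin line. The 2 libraries overlap for every list drawn, and the ribosomal protein share stands furthest apart, with medians of 4.31% and 8.62%.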

How the data were processed

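Single cells were captured on the Chromium system and counted by their UMIs. The authors deposited raw UMI counts per gene and cell, made with Cell Ranger 1.2.1 on mm10 per the submitters' processing notes. The gene annotation release is not given in the sources used here. The deposited barcodes equal the cell numbers of the labels, and the study's own coverage filter was not applied. No doublet caller was run, and the alternatives that leave out mixed or deep cells bear on doublets.

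Basal UMIs were summed per library and divided by their total to give CPM (Python 3.11.15, numpy 2.4.6, scipy 1.17.1, pandas 2.3.3). Genes with a mean of at least 50 CPM were compared. Counts have exact Poisson and ratios exact conditional binomial 95% intervals, which cover counting error only. With 1 library per group no test was run, and a gene is called by 2-fold alone. TMM factors came from edgeR 4.0.16. Transcript length, GC and overlaps came from GENCODE on GRCm38. Cells were thinned without replacement with a fixed seed. The steps were tested on simulated data. Named genes were the 12 highest and 12 lowest ratios, the 4 most abundant members of each list, the genes of the rule and those of the gates. 1 gene that this rule names is not reported here. The members and lists were chosen with earlier results of these data known.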

Additional observations from a re-analysis of the deposited data

How the results depend on the processing

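The counts of 845 genes higher and 613 lower stayed between 794 and 859 and between 533 and 677 under the other choices of cells, thinning and averaging that were tried and with mitochondrial and ribosomal protein genes left out of the total. The genes behind the counts were not all the same. In the shared UMI range 638 of the 845 and 456 of the 613 were called again. The numbers were 665 and 513 with no luminal keratin UMI, and 698 and 528 without cells holding other markers. The counts moved more with the scaling, filter and fold. The higher count was 350 under TMM and the lower count 890. A mean of at least 20 CPM gave 1605 and 1053, at least 200 CPM gave 176 and 171, and no filter gave 4472 and 3258. A 1.5-fold threshold gave 1351 higher and 861 lower, and 3-fold gave 185 and 250. Relative to genes of like length and GC, a setting chosen after seeing the data, 183 were higher and 407 lower. Leaving out cells under 200 UMIs and the luminal-keratin comparison were also chosen after seeing the data.

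Of the named genes with a value in both settings, 10 of 124 changed sign under TMM, 13 of 115 in the shared UMI range, 8 of 120 with members thinned, 9 of 116 with no luminal keratin UMI and 9 of 113 without cells holding other markers. They included the abundant Junb under TMM, at -0.31, and Dcn in the shared range, at 0.20. The named genes past 2-fold that changed sign all lay below the mean CPM set for comparing genes, and some rested on few UMIs. Egfl7 was counted 2 and 1 times and Cspg4 10 and 5 times in sorted and total epithelial basal cells. Among the genes compared, 2 of those called changed sign in the shared UMI range, 2 with no luminal keratin UMI and 0 with members thinned. In the shared UMI range the log2 ratio of Csn3 was 0.38 and that of Cspg4 -0.16. With members thinned Col1a2 was at -0.29. With no luminal keratin UMI Egfl7 was at -1.05 and Cldn4 at 0.53. With Krt5 or Krt14 required Rgs5 was at 2.31 and Fabp4 at 0.31. Without cells holding other markers Fabp4 was at 1.4, Cd14 at 0.036 and Cd74 at 0.69, but the filter used these markers, so these values are not read. The cause was not tested. No paired analysis was possible because each group has 1 library, and for the same reason no library could be left out. Depth limits the sorted side most, where 3 UMIs in the pool equal 1.4 CPM.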
